A study of Rattus norvegicus with 12 samples.

Results

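Chaperones fold new proteins and refold damaged ones. The genes described here encode the Hsp70, Hsp110 and Hsp90 chaperones of the cytosol and the J proteins that work with them, in the left ventricle of rats that ran or stayed sedentary. The list held 10 genes (Hsph1, Hspa1a, Hspa1b, Hspa1l, Hspa2, Hspa4, Hspa8, Hsp90ab1, Dnajb5 and Dnaja1). A probe set, the group of array features that reports a transcript, was taken where its annotation named exactly 1 gene and that gene was on the list. This gave 14 of the 8740 probe sets on the array, for 8 of the 10 genes. Hspa8 and Hspa1b had no probe set of their own. They were named beside another gene on 6 further probe sets, which are described as such and not counted among the 14.

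The study concerned growth of the heart under training. Left ventricle RNA of 6 exercised samples, taken after 7 weeks on a treadmill and numbered 1, 4, 5, 7, 8 and 9, and of 6 sedentary samples, numbered 13, 16, 17, 21, 23 and 24, was hybridised to 1 single-channel array each. The labels give running as the difference between the groups. Strain, sex, age, the running schedule and the time between the last run and tissue collection were not stated in the labels used here, and nothing there says that each number is a separate animal. The p-values therefore measure only how these samples vary, and part of that may be technical. The genes were chosen by earlier results of this same contrast, Hsph1 high and Hspa1a and Dnajb5 low in exercised samples, so their differences are a description of these arrays and their adjusted p-values say where they fell in a fit over all probe sets. They are not independent tests.

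An Hsp70 protein binds and lets go of exposed stretches of a client in a cycle of ATP hydrolysis and nucleotide exchange. J proteins bring the client and start the hydrolysis, Hsp110 proteins such as Hsph1 and Hspa4 drive the exchange, and Hsp90 takes over clients such as kinases and steroid receptors at a late stage. Some of these genes are transcribed at all times and others mainly under heat, oxidative or mechanical stress, when the factor Hsf1 binds arrays of inverted GAA and TTC units (heat shock elements). A rise of inducible Hsp70 in the rat heart after running is a classical observation in exercise physiology.

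The promoters of 4 of these genes are shown because they differ in heat shock elements. Each is the window of 250 bases before to 50 bases after the annotated start in RefSeq's GRCr8 assembly, on the plus strand, at chr12:10427118-10427417 for Hsph1, chr8:50080264-50080563 for Hspa8, chr5:60638154-60638453 for Dnaja1 and chr5:61972456-61972755 for Dnajb5. Capitals mark every run of 2 or more alternating units, searched as GAANNTTC and TTCNNGAA, which read the same on both strands, and overlapping matches were counted.
Hsph1: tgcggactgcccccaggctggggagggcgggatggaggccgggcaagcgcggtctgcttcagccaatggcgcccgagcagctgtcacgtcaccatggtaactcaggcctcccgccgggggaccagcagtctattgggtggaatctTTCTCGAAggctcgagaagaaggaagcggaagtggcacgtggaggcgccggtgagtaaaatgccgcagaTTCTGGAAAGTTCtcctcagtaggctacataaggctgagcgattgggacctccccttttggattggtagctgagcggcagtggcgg
Hspa8: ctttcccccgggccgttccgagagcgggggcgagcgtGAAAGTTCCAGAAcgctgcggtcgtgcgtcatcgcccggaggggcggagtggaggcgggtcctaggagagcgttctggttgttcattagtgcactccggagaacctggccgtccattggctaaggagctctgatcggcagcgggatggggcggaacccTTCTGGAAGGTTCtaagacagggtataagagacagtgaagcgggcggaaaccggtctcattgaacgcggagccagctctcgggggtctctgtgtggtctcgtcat
Dnaja1: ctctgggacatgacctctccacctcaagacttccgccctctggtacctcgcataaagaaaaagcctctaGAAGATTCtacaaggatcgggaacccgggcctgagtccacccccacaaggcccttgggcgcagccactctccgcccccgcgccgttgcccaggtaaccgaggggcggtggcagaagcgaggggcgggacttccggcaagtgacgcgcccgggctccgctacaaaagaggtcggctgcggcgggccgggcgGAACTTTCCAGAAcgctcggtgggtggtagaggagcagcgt
Dnajb5: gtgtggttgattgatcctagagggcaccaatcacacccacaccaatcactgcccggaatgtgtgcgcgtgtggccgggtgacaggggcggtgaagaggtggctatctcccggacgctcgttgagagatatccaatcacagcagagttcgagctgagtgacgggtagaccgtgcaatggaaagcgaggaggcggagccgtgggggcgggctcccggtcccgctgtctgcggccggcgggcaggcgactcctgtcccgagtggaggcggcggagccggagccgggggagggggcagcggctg

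A run of 3 alternating units, on either strand, occurred in 3 of the 9 windows found for the listed genes, once in Hsph1, once in Dnaja1 and at 2 places in Hspa8. Of all 33469 windows in the table, 0.798% held such a run. In Hsph1 it began 36 bases before the start, in Hspa8 213 and 55 bases before it, and in Dnaja1 at base 10 after it. At least 2 units, which 15.9% of all windows hold, were found in these 3 and in Hspa2. The windows of Dnajb5, Hsp90ab1, Hspa1a, Hspa1l and Hspa4 held neither, which says only that these letters are not in them. Each gene had 1 window, at 1 annotated start, and sequence outside it was not searched. That of Hspa1a (chr20:3859506-3859805, plus strand) lies downstream of the start of Hspa1l, whose window is chr20:3860174-3860473 on the minus strand. It may therefore miss elements nearer the Hspa1a coding sequence. A CCAAT box (CCAAT or ATTGG, in 37.5% of all windows) was present in 5 of the 9, with 4 in Hsph1 and 3 in Dnajb5. Hspa1l, Hspa1a and Hspa1b are neighbours on rat chromosome 20, in that order. RefSeq's table held no window for Hspa1b.

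The listed chaperones did not all differ in the same direction. For Hsph1, Hspa1a and Dnajb5 the directions were fixed by the choice of genes. Hsph1 was higher in exercised samples on both of its probe sets, and 1 of them passed the test described below. Hspa1a and Dnajb5, with 1 probe set each, were lower without any overlap between the groups and did not pass. The groups overlapped on the 4 probe sets shared by Hspa1a and Hspa1b. The probe sets of Hsp90ab1 and Hspa4 were higher and those of Hspa1l and Dnaja1 lower by sign, with overlap and without passing. Of the 14 probe sets, 13 passed the filter on dim probe sets (mean above the 25th percentile of all means) and 1 did not. In the fit over all 6555 tested probe sets (limma on log2 values with a mean-variance trend, two-sided, Benjamini-Hochberg adjusted p under 0.05), 1 of the 13 was called, higher in exercised samples, where 0.32% of all probe sets were called and 0.275% were called higher. The groups did not overlap on 3 of the 13, 1 higher and 2 lower. Over all tested probe sets the share without overlap was 2.07%, made up of 1.5% higher and 0.58% lower. These shares are given beside the counts only, since the genes were picked on this contrast. By sign 8 of the 13 were higher and 5 lower, with a median log2 difference of 0.10, while 51.4% of all tested probe sets were higher with a median of 0.0027. Every difference is the exercised mean minus the sedentary mean of log2(intensity + 363), a scale on which dim probe sets change less than their intensities do. In ventricle tissue, fewer cells of a type and less RNA per cell cannot be told apart.

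**Figure D1:**
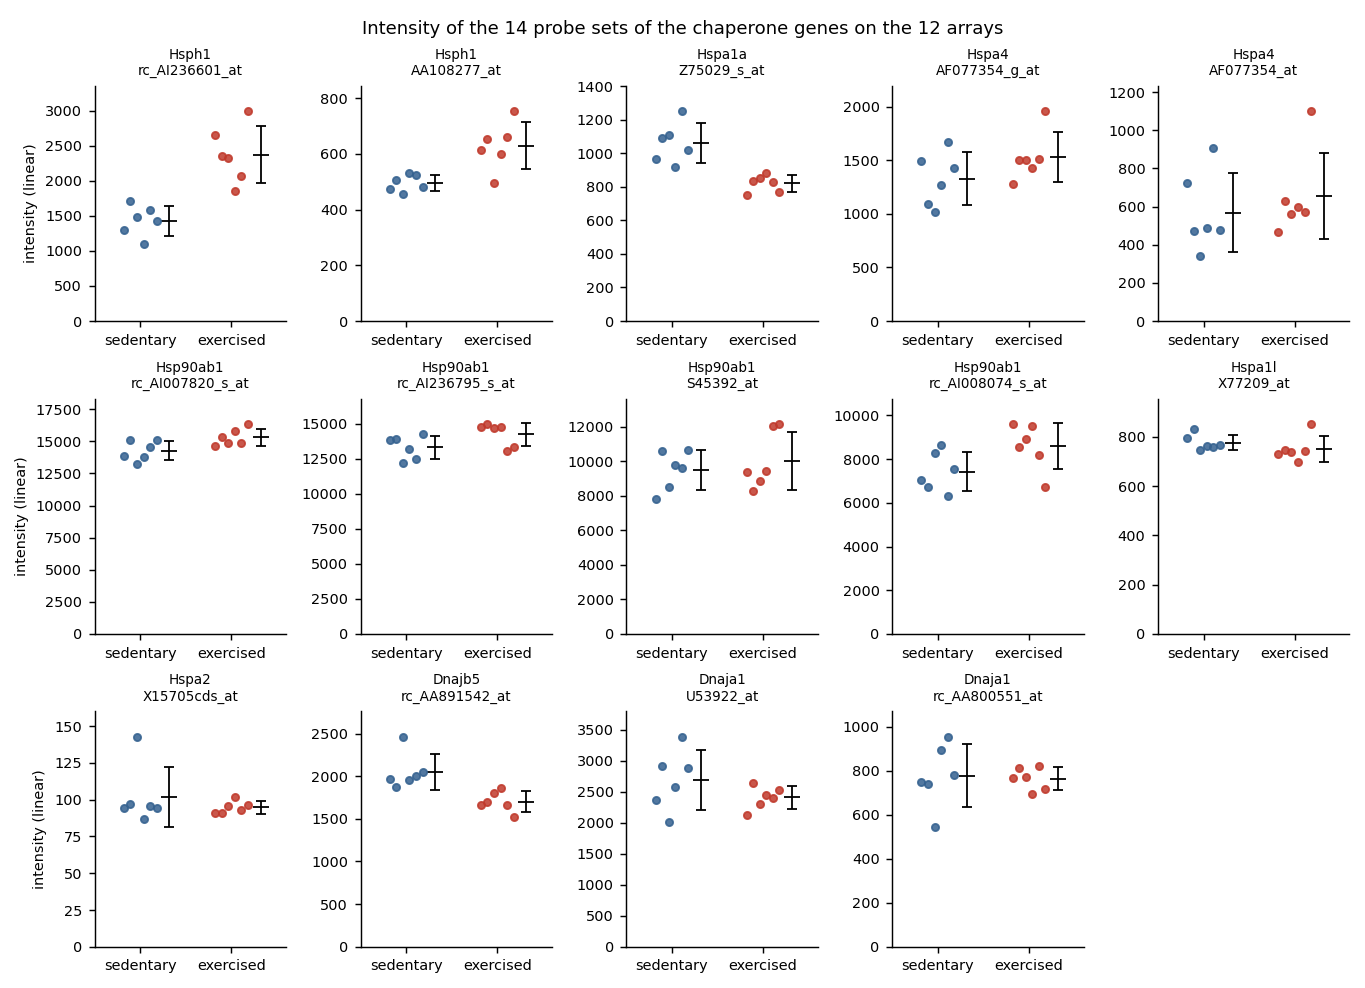
Intensity (linear scale, each panel from 0) of the 14 probe sets on the 6 sedentary (blue) and 6 exercised (red) arrays, each point an array in the order of its number, with the mean and SD in black. On rc_AI236601_at of Hsph1 every exercised array lies above every sedentary one, and on the Hspa1a and Dnajb5 probe sets every exercised array lies below.

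The array of sedentary 17 stood apart from the rest. It was the highest or the lowest of the 12 arrays on 55.6% of all tested probe sets, against 7.29% to 22.4% for each other array. On the 20 probe sets described here, the 14 and the 6 shared ones, it was the highest on 4 and the lowest on 8. Exercised 9 was the highest on 8 and the lowest on 1. Values without sedentary 17 are therefore given beside each gene.

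Hsph1 (Hsp105) is the stress-inducible Hsp110 protein, the exchange factor that also holds unfolded clients on its own. On rc_AI236601_at its intensity ran from 1106 through a median of 1455 to 1707 in sedentary samples and from 1856 through 2336 to 2997 in exercised samples. The lowest exercised array, exercised 7, was above the highest sedentary array, sedentary 16. The means were 1433 ± 213 and 2376 ± 407 (SD, n = 6), a ratio of 1.66. Hsph1 rose by 0.60 ± 0.10 (SE) on the log2 scale, with a 95% confidence interval of 0.39 to 0.82 and a limma adjusted p of 0.0276, and ranked 7 of 6555 probe sets by p. Exercised 9 had the highest value and exercised 7 the lowest of its group, and sedentary 21 was the lowest of all 12. Without sedentary 17 the difference was 0.61 (adjusted p = 0.0382). The call was lost without exercised 5 (difference 0.61, adjusted p = 0.0696), sedentary 23 (0.63, 0.0562) or sedentary 24 (0.61, 0.0581), and it held in the other 9 fits that left out an array.

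The other Hsph1 probe set, AA108277_at, was dimmer and gave a smaller difference of the same sign. It ran from 457 through 494 to 530 in sedentary and from 496 through 634 to 755 in exercised samples. Exercised 5, at 496, fell inside the sedentary range, while the other 5 exercised arrays lay above it. The log2 difference was 0.21 ± 0.05, with an interval of 0.09 to 0.32 and a limma adjusted p of 0.0916, above the threshold. It was 0.19 without sedentary 17 (0.0920). With group means removed, the probe sets of Hsph1 hardly followed each other over the 12 arrays (Pearson r = 0.280, Spearman rho = 0.210, permutation p = 0.462 and 0.544, adjusted over 20 pairs of probe sets 0.616 and 0.680, and r = -0.0426 without exercised 5 and 9).

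Hspa1a encodes the inducible Hsp70 of the cytosol (Hsp72). On Z75029_s_at it ran from 919 through 1053 to 1252 in sedentary samples and from 749 through 834 to 881 in exercised samples. The highest exercised array, exercised 7, was below the lowest sedentary array, sedentary 21. The means were 1059 ± 119 and 821 ± 50.2 (SD, n = 6). This is a log2 difference of -0.26 ± 0.05, with an interval of -0.38 to -0.15, and the limma adjusted p of 0.0542 missed the threshold. Without sedentary 17 it was -0.25 (adjusted p = 0.0643). Over 25 other settings the sign stayed negative and the adjusted p ran from 0.0299 to 0.182, under the threshold in 6. Among these were the fits without sedentary 13 (-0.28, 0.0421) or sedentary 21 (-0.29, 0.0461).

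A further 4 probe sets are annotated to Hspa1a and Hspa1b together, near-identical neighbours whose transcripts an array can hardly separate. None of these 4 had a difference as large as that of Z75029_s_at. L16764_s_at, the brightest, ran from 2097 through 2535 to 2692 in sedentary and from 2100.3 through 2415 to 2780.1 in exercised samples, and its log2 difference was -0.02 ± 0.07 (interval -0.17 to 0.13). Z27118cds_s_at gave -0.11 ± 0.05, rc_AA818604_s_at -0.08 ± 0.05 and AA848563_s_at -0.09 ± 0.09, with limma adjusted p of 0.330, 0.456 and 0.633. The groups overlapped on all 4.

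Sedentary 17 weighed on part of this. On AA848563_s_at it stood at 855, the rest of its group at 402 to 515, and leaving it out gave a difference of 0.0047. On Z27118cds_s_at it stood at 944, the rest at 676 to 801, and leaving it out gave -0.06. On L16764_s_at leaving it out moved the difference the other way, from -0.02 to -0.06. On rc_AA818604_s_at the difference went from -0.08 to -0.07. With group means removed, Z75029_s_at had a Pearson r of -0.02 to 0.29 with these 4 probe sets over the 12 arrays, and no such pair passed a permutation test (unadjusted p from 0.494 to 0.963). With L16764_s_at the groups went opposite ways, at r = -0.914 among the 6 exercised and 0.388 among the 6 sedentary samples (exact permutation p = 0.00833 and 0.438, adjusted over 40 correlations within a group 0.157 and 0.632), a difference between the groups that was not tested. Without sedentary 21 and 23 the pooled r of that pair was -0.695. The lower signal of Hspa1a without overlap was measured on 1 probe set, and since the genes are near-identical, which of them it reports is uncertain.

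**Figure D2:**
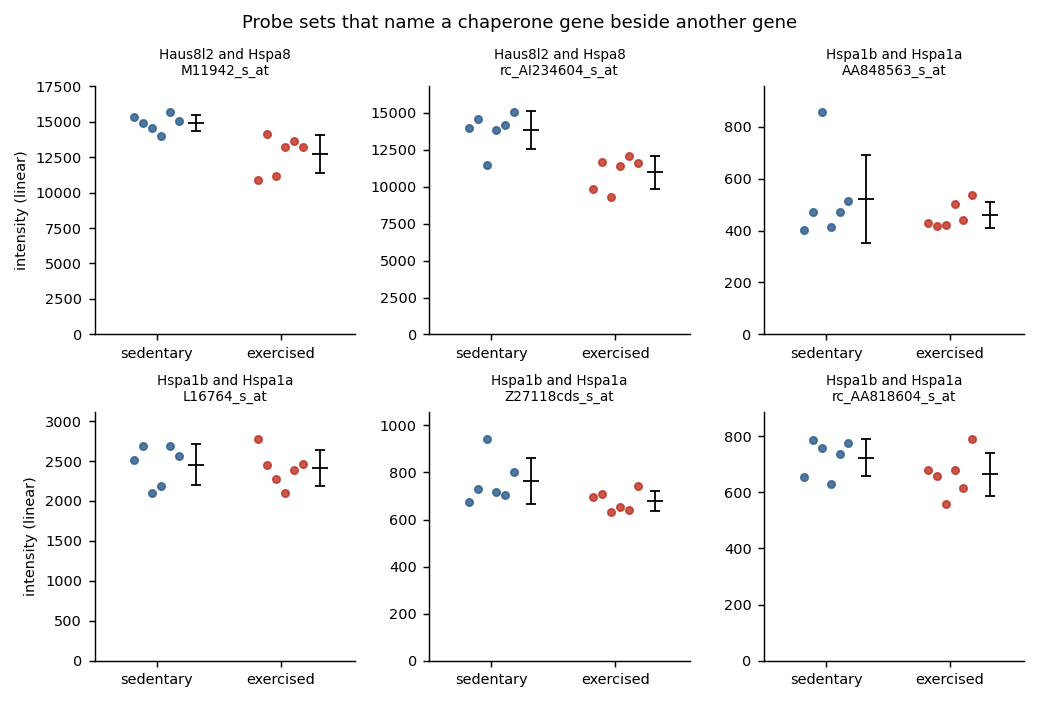
Intensity (linear scale, each panel from 0) of the 6 probe sets annotated to a listed gene and another gene, on the sedentary (blue) and exercised (red) arrays, with mean and SD (n = 6) in black. The pair naming Hspa8 is lower in exercised samples with slight overlap, and the 4 naming Hspa1a and Hspa1b overlap widely.

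Hspa8 (Hsc70) is the constitutive Hsp70, which also strips clathrin from vesicles and feeds clients to autophagy. Both probe sets that name it also name Haus8l2, so they are not assigned to either gene. M11942_s_at ran from 14011 through 14971 to 15649 in sedentary and from 10904 through 13200.4 to 14090.4 in exercised samples. Exercised 4 alone lay above the lowest sedentary array. The probe set differed by -0.23 ± 0.07 (interval -0.37 to -0.09, limma adjusted p = 0.109, and -0.24 without sedentary 17).

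The other shared probe set of Hspa8, rc_AI234604_s_at, ran from 11432 through 14056 to 15027 in sedentary and from 9287 through 11500 to 12076 in exercised samples. Its lowest sedentary array was sedentary 17, and the next lowest, at 13839, was above every exercised array. The log2 difference was -0.33 ± 0.08 (interval -0.49 to -0.16), with a limma adjusted p of 0.0793. It passed the threshold in 3 of 25 other settings, without sedentary 17 (-0.38, adjusted p = 0.0392), under quantile normalization (-0.42, 0.0306) and with array weights (-0.39, 0.0170). Exercised 1 and 5 had the lowest values of the 12 on both probe sets. All 6 exercised arrays were below the sedentary mean on each.

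Hsp90ab1, the constitutive cytosolic Hsp90, had 4 probe sets, all higher by sign and all overlapping. On rc_AI007820_s_at, the brightest, intensities ran from 13226 through 14226 to 15119.6 in sedentary and from 14644 through 15113 to 16366 in exercised samples, and all 6 exercised arrays were above the sedentary mean. There the log2 difference was 0.10 ± 0.05 with an interval of -0.0041 to 0.20 (limma adjusted p = 0.330). On rc_AI008074_s_at it was 0.20 ± 0.09 (0.0012 to 0.40), on rc_AI236795_s_at 0.10 ± 0.05 (-0.02 to 0.21) and on S45392_at 0.07 ± 0.10 (-0.15 to 0.29). Their limma adjusted p lay between 0.305 and 0.748. Without sedentary 17 the 4 differences were 0.08, 0.23, 0.07 and 0.04, in the same order.

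The Hsp90ab1 probe sets did not rank the arrays alike. Exercised 9 was the highest of the 12 on rc_AI007820_s_at and on S45392_at, but the lowest of the exercised arrays on rc_AI008074_s_at, at 6724. Over the 6 pairs of these probe sets the Pearson r with group means removed ran from -0.606 to 0.526. The differences of Hsp90ab1 also moved with the scaling. Under quantile normalization they were 0.02 on rc_AI007820_s_at, 0.14 on rc_AI008074_s_at, 0.01 on rc_AI236795_s_at and -0.02 on S45392_at. With array weights S45392_at gave -0.03, and without exercised 9 it gave 0.01.

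Hspa4, the constitutive Hsp110 protein, was measured by a pair of probe sets with the same sequence name. AF077354_g_at ran from 1018 through 1347 to 1676 in sedentary and from 1277 through 1504 to 1962 in exercised samples. Its log2 difference was 0.17 ± 0.10 (interval -0.04 to 0.38, limma adjusted p = 0.410), and 0.11 without sedentary 17. AF077354_at gave 0.13 ± 0.15 (-0.18 to 0.44), and 0.06 without sedentary 17. The groups overlapped on both, and exercised 9 was the highest and sedentary 17 the lowest of the 12 on both. Without exercised 9 the differences of Hspa4 were 0.11 on AF077354_g_at and 0.02 on AF077354_at, and without sedentary 23, the highest of its group, they were 0.22 and 0.23.

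The Hspa4 probe sets followed each other closely, unlike those of Hsph1. With group means removed their Pearson r was 0.921 (Spearman rho 0.797, permutation p = 0.00014 and 0.00474, adjusted over 20 pairs 0.0028 and 0.0948), and 0.819 without exercised 9 and sedentary 23. Samples of a group varied widely on AF077354_at, with means of 568 ± 207 in sedentary and 654 ± 226 in exercised samples (SD, n = 6).

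Hspa1l and Hspa2 are Hsp70 genes best known for expression in the testis. Hspa1l on X77209_at ran from 747 through 766 to 832 in sedentary and from 699 through 741 to 853 in exercised samples, and 5 of the 6 exercised arrays were below the lowest sedentary one. The exception was exercised 9, the highest of the 12. Its log2 difference was -0.03 ± 0.04 (interval -0.11 to 0.045, limma adjusted p = 0.657, -0.04 without sedentary 17 and -0.06 without exercised 9). Hspa2 on X15705cds_at was dim, at 87.0 to 143 over all 12 arrays, and did not enter the fit. Its medians were 95.2 in sedentary and 94.3 in exercised samples, and sedentary 17 held the 143.

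Dnajb5 (Hsc40) is a J protein of the B class found in heart and skeletal muscle. On rc_AA891542_at it ran from 1875 through 1981 to 2464 in sedentary and from 1517 through 1682 to 1858 in exercised samples. The highest exercised array, exercised 7, was just below the lowest sedentary array, sedentary 16. The means were 2050 ± 211 and 1700.3 ± 121 (SD, n = 6). Dnajb5 differed by -0.22 ± 0.06 (interval -0.35 to -0.10), and its limma adjusted p of 0.0993 missed the threshold. Sedentary 17, at 2464, was well above the rest of its group, and leaving it out gave -0.18 (adjusted p = 0.0765). The adjusted p stayed above the threshold in all 25 other settings, from 0.0642 to 0.234.

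Dnaja1, a general partner of Hsp70 in the cytosol, had a pair of probe sets. U53922_at ran from 2007 through 2729 to 3386 in sedentary and from 2126 through 2416 to 2647 in exercised samples, so every exercised array lay inside the sedentary range. All 6 exercised arrays were also below the sedentary mean. The log2 difference was -0.13 ± 0.09 (interval -0.33 to 0.07, limma adjusted p = 0.503), -0.20 without sedentary 17, the lowest array, and -0.07 without sedentary 23, the highest. On rc_AA800551_at it was -0.0083 ± 0.07 (-0.16 to 0.15), and -0.07 without sedentary 17. The sedentary samples were more spread than the exercised ones on both, with means of 2689 ± 480.2 and 2406 ± 182 on U53922_at and 778 ± 142 and 765 ± 50.9 on the other (SD, n = 6, sedentary first), a difference in spread that was not tested.

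**Figure D3:**
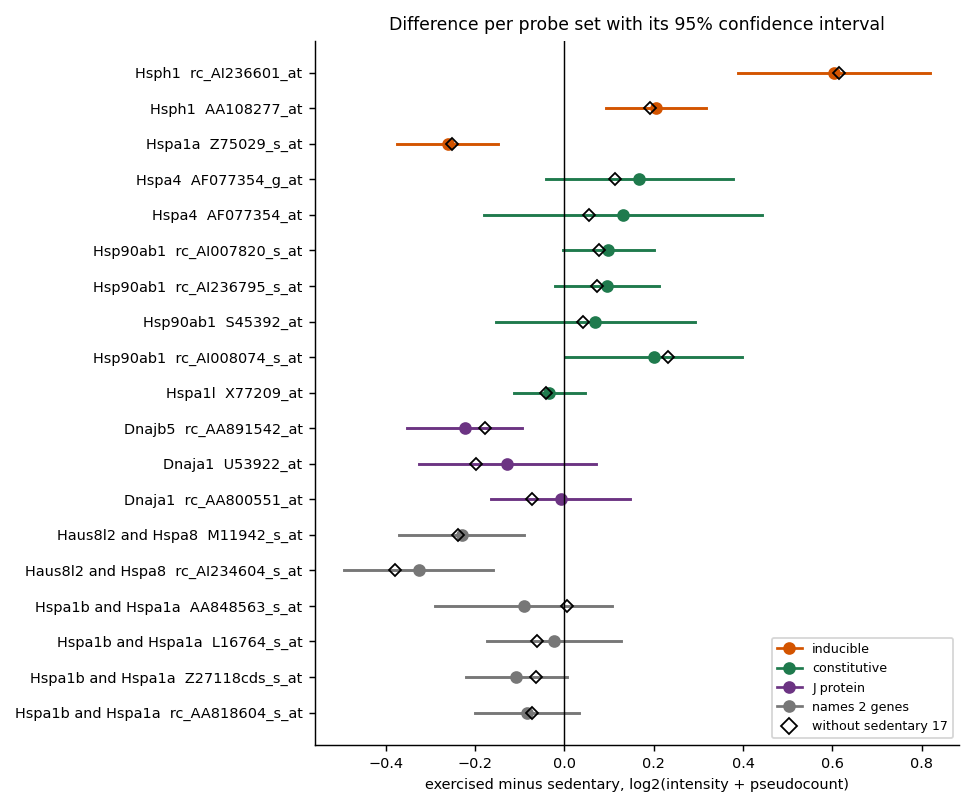
Difference per probe set on the log2(intensity + 363) scale, exercised minus sedentary, with the 95% confidence interval from limma (lines) and the value without sedentary 17 (open diamonds). Inducible genes (orange) span 0.60 for Hsph1 to -0.26 for Hspa1a, the constitutive ones (green) lie between -0.03 and 0.20, the J proteins (purple) between -0.22 and -0.0083, and probe sets naming a pair of genes are grey.

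Set by role, the 3 tested probe sets of the inducible genes ran from -0.26 for Hspa1a to 0.60 for Hsph1, with 2 higher and 1 lower. Hspa1a was chosen as low and Hsph1 as high, so this spread was fixed by the choice and does not describe the role. The 4 probe sets shared by Hspa1a and Hspa1b, not counted here, lay between -0.11 and -0.02. The 7 probe sets of the constitutive Hsp90ab1, Hspa4 and Hspa1l ran from -0.03 to 0.20, with 6 higher and 1 lower and a median of 0.10. All 3 J protein probe sets were lower by sign, from -0.22 for Dnajb5, also chosen as low, to -0.0083 on rc_AA800551_at of Dnaja1. The sign of the last turned in 4 of 24 other settings. Of 8 other J proteins measured, 4 were higher and 4 lower by sign. Hspa8 is not in the counts by role. The probe sets shared with Haus8l2 gave -0.23 and -0.33, outside the range of the constitutive genes measured on their own.

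**Figure D4:**
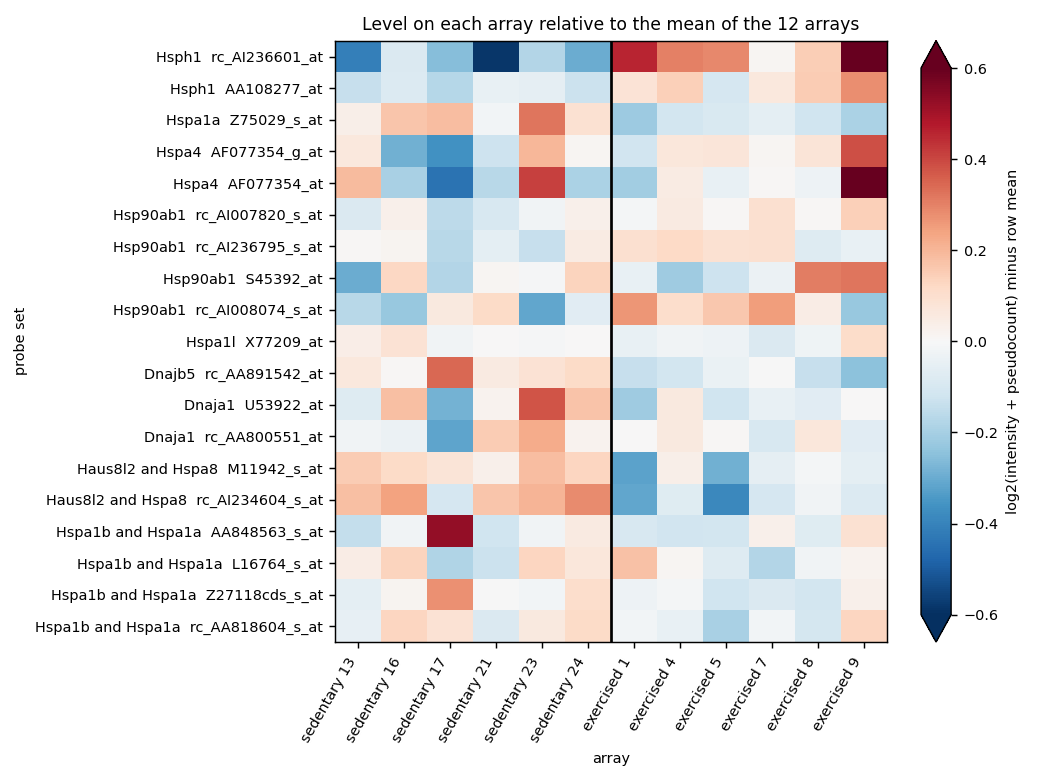
Level of each tested probe set on each array as log2(intensity + 363) minus the mean of its 12 arrays (colour, blue lower and red higher, cut at 0.6). The Hsph1 rows go mostly from blue to red between the groups, Hspa1a, Dnajb5 and those naming Hspa8 mostly the other way, and sedentary 17, sedentary 23 and exercised 9 have strong colours of their own.

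Whether the chaperones varied together from sample to sample was followed within the groups, a measure that the choice of genes did not use. Since Hspa8 had no probe set of its own, 10 pairs of 5 genes (Hsph1, Hspa1a, Hsp90ab1, Dnaja1 and Dnajb5) were tested, each gene by its brightest probe set. None passed when adjusted over the 10 pairs. The closest was Hsp90ab1 with Dnaja1, with a Pearson r of 0.752 and a Spearman rho of 0.741 over 12 arrays with group means removed (permutation p = 0.00928 and 0.0138, adjusted p = 0.0928 and 0.138). It was 0.680 among exercised and 0.817 among sedentary samples, and 0.626 without sedentary 17 (adjusted permutation p = 0.174). It passed in 2 other settings, without exercised 9 and sedentary 24 (0.801, adjusted permutation p = 0.0219) and without sedentary 23 (0.846, 0.0362). This r belongs to rc_AI007820_s_at and U53922_at, and other probe sets of these genes were not tested as pairs. The first had r of -0.606 to 0.526 with the other Hsp90ab1 probe sets. The probe sets of Dnaja1 had r = 0.705 with each other, and -0.102 without sedentary 17 and 23.

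Hsph1 and Hspa1a, both inducible, had a pooled r of 0.154 (rho 0.0559, permutation p = 0.634 and 0.871, adjusted p = 0.676 and 0.871). The groups went opposite ways, with r = -0.850 among the 6 exercised and 0.805 among the 6 sedentary samples (exact permutation p = 0.0347 and 0.0556, both 0.222 when adjusted over the 20 correlations within a group). The difference between the groups was not tested. Exercised 7 had the lowest Hsph1 and the highest Hspa1a of its group, and exercised 1, second in Hsph1, had the lowest Hspa1a. Without exercised 7 and 9 the pooled r was 0.531. Without sedentary 21, low in both, it was -0.150.

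By within-group pattern over the 12 arrays, the probe sets most like Hsph1 among 5376 naming 1 gene were those of Ahcy (r = 0.903), Shc2 (0.889), Ndufb5 (0.851), Casp6 (0.844) and Agtr1b (0.833). Those most like Hspa1a were Tmpo (0.859), Vcan (0.848), Serpina3m (0.843), Nrn1 (0.838) and Mthfd1 (0.815). These were the highest of many r values and carry no test. None of the listed chaperones was among them, and none of the 10 was called in the contrast (limma adjusted p from 0.199 to 0.739).

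The rest of the chaperone network, taken from lists set out by function, held no called gene. Of 11 other Hsp70, Hsp110 and Hsp90 genes 6 were measured, with a median difference of -0.06. Hspa5, the Hsp70 of the endoplasmic reticulum, gave -0.27 ± 0.11 and its partner Hsp90b1 0.03 ± 0.05 (limma adjusted p = 0.245 and 0.781). Of 27 other J proteins 8 were measured, 4 higher and 4 lower by sign (median -0.02). Dnaja4 went from 2883 ± 256 to 3572 ± 566 (0.27 ± 0.09, adjusted p = 0.171), and Dnaja2, a close relative of Dnaja1, gave -0.10 ± 0.09 (0.593).

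Of 28 cochaperones of Hsp70 and Hsp90, 10 were measured, 5 higher and 5 lower by sign (median 0.01). Their differences ran from -0.27 to 0.23, so the median hides a spread. Cdc37, which delivers kinases to Hsp90, gave 0.03 ± 0.07 and Chordc1 -0.0036 ± 0.07 (limma adjusted p = 0.853 and 0.983). Hsf1, the factor that drives the inducible genes, was measured at the level of its own transcript and gave -0.10 ± 0.08 (0.536), which does not show its activity. Vcp, an unfolding ATPase, gave -0.0014 ± 0.08. Of the 14 subunits of the TRiC chaperonin and prefoldin 3 were measured. Cct3 went from 2194 ± 173 to 2675 ± 215 (0.25 ± 0.06, adjusted p = 0.0797), and Pfdn2 gave -0.07 ± 0.07.

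**Figure D5:**
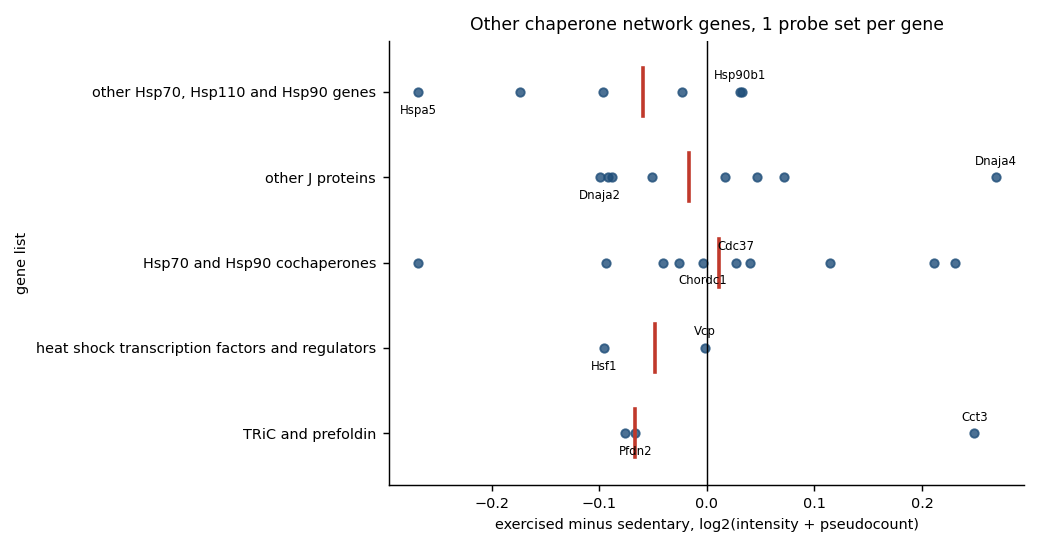
Difference of each measured gene of 5 lists of the chaperone network on the log2(intensity + 363) scale, exercised minus sedentary, 1 point per gene by its brightest probe set, with the list median as a red line. Names mark the 2 brightest genes of each list, and list medians lie between -0.07 and 0.01.

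Some transcripts of other cells and states differed between the groups beside the chaperones, and their part in the chaperone values was not tested. The array medians lay between 840 and 875. The ventricular myosin light chain Myl2 and cardiac actin Actc1 were bright on all arrays, and 12 of 13 measured cardiomyocyte markers were not called, Csrp3 being the exception. Of 10 measured fibroblast markers 9 were higher by sign in exercised samples (median 0.19), with summed intensities of 54926 to 81535 against 43497 to 58848. All 6 measured smooth muscle markers were higher (0.14) and all 3 erythroid markers lower (-0.28), with summed erythroid intensities of 13476 to 38361 against 37211 to 42376. Among 21 immediate early and acute stress genes 16 were lower by sign (median -0.05), and of 8 clock genes 3 were higher and 5 lower (-0.02). That median hides large differences. Dbp gave 0.76 ± 0.27, Nr1d2 0.59 ± 0.18 and Bhlhe41 0.35 ± 0.09 (limma adjusted p = 0.178, 0.141 and 0.0971). The 5 lower clock genes lay between -0.16 for Bmal1 and -0.01 for Hlf. No gene of the fibroblast, smooth muscle, erythroid, early response and clock lists was called, nor any of the 6 endothelial (median difference 0.0020) and 4 atrial (-0.04) markers. Sedentary 16 had the highest summed atrial markers, with the atrial light chain Myl7 at 8652 against at most 1499 on any exercised array. Without it the differences were 0.65 for Hsph1 (adjusted p = 0.0307), -0.26 for Hspa1a (0.0968) and -0.24 for Dnajb5 (0.126), and without both sedentary 16 and 17 they were 0.67 (0.0501), -0.24 (0.113) and -0.19 (0.119). Of 9 macrophage and leukocyte markers 4 were higher and 5 lower by sign (median -0.01). Lyz2 alone was called (0.997 ± 0.18, limma adjusted p = 0.0404). The highest summed fibroblast, smooth muscle and macrophage markers were on exercised 4, and the lowest summed erythroid markers on exercised 5. Without exercised 4 and 5 the Hsph1 difference was 0.61 (adjusted p = 0.113).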

How the data were processed

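Values were the intensity per probe set on a linear scale as deposited by the authors, 1 column per array. The sources used here do not give the array software, background correction or scaling. Groups came from the sample titles. The members and gene lists were chosen with earlier results of these data known. Gene names are those of GEO's platform annotation, where 7006 probe sets name 1 gene, 308 several and 1426 none. Of the 7006, 6985 matched RefSeq (GRCr8) by Entrez ID and no symbol changed.

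Intensities were put on a log2(intensity + 363) scale, the pseudocount being the 20th percentile of all values. Probe sets with a mean above 434 (25th percentile) were kept, 6555 in all. The fit used lmFit and eBayes with trend (limma 3.58.1, R 4.3.3), two-sided, adjusted by Benjamini-Hochberg over the 6555. The code was tested on simulated data. A gene in a list stood by its brightest kept probe set. Named were every member probe set, the 2 brightest and any called gene of each network list, and the 5 most similar patterns. From the other lists, called genes were named as far as they touch a result, and some that were not called. Correlations used log2 values with group means removed and 100000 permutations within groups. Agreement between probe sets of a gene and the probe sets naming several genes were added after their values were seen. Promoters came from RefSeq's table. The number of arrays limits the precision.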

Additional observations from a re-analysis of the deposited data

Results flagged for a closer look

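Of 40 groups of 6 arrays (20 probe sets in each condition), 7 held an array far from the other 5, with a gap above 0.625 of the group's range. For independent groups of normal values chance gives about 1 in 20. These groups share the same arrays and related probe sets, so the count was not tested against that rate. Sedentary 17 accounted for 4, with 2464 for Dnajb5 (others 1875 to 2048), 143 for the dim Hspa2 probe set (87.0 to 97.1), 855 on AA848563_s_at naming Hspa1b and Hspa1a (402 to 515) and 11432 on rc_AI234604_s_at naming Haus8l2 and Hspa8 (13839 to 15027). Exercised 9 accounted for the other 3, with 853 for Hspa1l (699 to 747) and 1101 and 1962 on the Hspa4 probe sets AF077354_at (465 to 627) and AF077354_g_at (1277 to 1516).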

How the results depend on the processing

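The number of probe sets called, 21 of 6555, was 32 with no filter, 50 with a filter at the median, 42 without the mean-variance trend, 160 with array weights, 5 without sedentary 16 and 17, 4 without exercised 4 and 5, and 3 to 37 with 1 array left out. The rank-sum test (exact where no values tied) with Benjamini-Hochberg adjustment called 0, with 989 at an unadjusted p under 0.05 (1060 in limma). It could call none here. Groups without overlap have the smallest p that this test can give with 6 arrays each. Its adjusted p for Hsph1, Hspa1a and Dnajb5, which had no overlap, was 0.104. Of the 13 tested probe sets of the listed genes, 1 was called, and 2 with the filter at the median, quantile normalization, no trend or array weights, 0 with the rank-sum test or without either pair of arrays, and 0 to 2 with 1 array left out. Hsph1 (0.60) stayed at 0.542 to 0.662 with 1 array left out. It was not called with the rank-sum test (0.604), without sedentary 16 and 17 (0.670) or without exercised 4 and 5 (0.608). Hspa1a (-0.26) was called with the filter at the median (-0.262), quantile normalization (-0.260), no trend (-0.262) and array weights (-0.238), and ran from -0.291 to -0.224 with 1 array left out. Apart from this limit of the rank-sum test, the cause of these changes was not tested.

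Some signs turned. With 1 array left out, rc_AA800551_at of Dnaja1 ran from -0.0723 to 0.0353, and of the probe sets naming Hspa1b and Hspa1a, AA848563_s_at from -0.129 to 0.00469 (0.0121 without sedentary 16 and 17) and L16764_s_at from -0.0611 to 0.0104. S45392_at of Hsp90ab1 was -0.0174 with quantile normalization and -0.0267 with array weights. The r of Hsph1 with Hspa1a (0.154) ran from -0.150 to 0.353 and that of Hspa1a with Dnaja1 (0.416) from -0.00806 to 0.777 with 1 array left out, the lower end of the second without sedentary 23. Without the 2 arrays farthest from the median, Hsph1 with Dnajb5 went from -0.332 to 0.0402 and Hspa1a with Hsp90ab1 from 0.160 to -0.0405. No paired analysis was possible because the groups share no sample numbers. Signal over background is unknown, which limits what the dim Hspa2 probe set can show.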
